A study of Homo sapiens with 6 samples.

Results

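A set of 10 genes of the low-oxygen response and of glucose breakdown was chosen by a fixed list of Illumina probes, 1 probe for each of ADM, VEGFA, BNIP3, NDRG1, PDK1, SLC2A3, ANGPTL4, LDHA, ENO2 and HK2. Of these 10 probes, 9 were among the 24526 probes of the deposited table, and all 9 passed the filter on dim probes that left 13186 probes for testing. The listed probe for HK2 was not analysed here. The list was not drawn from the measured values of the contrast, but it was proposed with earlier results of these arrays known.

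The arrays compare 2 sorted fractions of OCM1A, an established human cell line that the labels give as a uveal melanoma, grown in RPMI-1640 with serum. Cells were separated by flow cytometry after a commercial MDR1 shift assay, which detects ABCB1 (MDR1, P-glycoprotein), a membrane pump that exports drugs. The 3 ABCB1-positive and 3 ABCB1-negative arrays come from 3 independent shift assays, and no drug treatment, knockdown or low-oxygen exposure is given for either fraction. All arrays share 1 line, so the p-values below cover no spread between lines. In the paired fit, those for the fractions set the mean difference against its variation from pair to pair. The fit, limma, moderates this variation: it draws each probe's value towards 1 shared by all tested probes. The printed SEs, intervals and p-values are therefore not those of the pairs alone. In a bulk sample, fewer cells that express a gene and less RNA per cell cannot be told apart.

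When oxygen is short, the alpha subunit of hypoxia-inducible factor (HIF) escapes hydroxylation and degradation, pairs with ARNT and binds short response elements near its target genes. The targets raise glucose uptake, glycolysis and lactate production, hold pyruvate back from the mitochondria, adjust mitochondrial turnover and send out vessel-forming signals. Many of them also respond to other inputs in tumour cells. In the set, SLC2A3 imports glucose, HK2, ENO2 and LDHA are glycolytic enzymes, and PDK1 inhibits pyruvate dehydrogenase. BNIP3 promotes mitophagy, NDRG1 is a stress-responsive growth regulator, and ADM, VEGFA and ANGPTL4 are secreted.

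Promoter sequence is shown for BNIP3 and ENO2, which differed between the fractions in opposite directions, and for LDHA, a classical HIF target. Each is the 250 bases before the gene's RefSeq start in GRCh38.p14, written 5′ to 3′ on the gene's strand, with capitals on the core letters of a hypoxia response element, ACGTG or GCGTG, on either strand. BNIP3 lies on the minus strand (chr10:131981924-131982173), ENO2 on the plus strand (chr12:6914330-6914579) and LDHA on the plus strand (chr11:18394313-18394562).
BNIP3: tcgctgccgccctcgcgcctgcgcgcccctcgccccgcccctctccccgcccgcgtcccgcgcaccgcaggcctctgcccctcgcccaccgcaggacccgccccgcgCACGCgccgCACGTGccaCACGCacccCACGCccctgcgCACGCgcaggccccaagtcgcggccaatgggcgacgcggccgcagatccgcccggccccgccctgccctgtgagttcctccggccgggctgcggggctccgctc
ENO2: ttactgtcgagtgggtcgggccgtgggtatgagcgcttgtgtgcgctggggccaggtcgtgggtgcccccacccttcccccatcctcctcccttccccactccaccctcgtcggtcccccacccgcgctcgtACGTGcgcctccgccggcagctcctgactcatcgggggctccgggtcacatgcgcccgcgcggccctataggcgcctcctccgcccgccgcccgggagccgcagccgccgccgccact
LDHA: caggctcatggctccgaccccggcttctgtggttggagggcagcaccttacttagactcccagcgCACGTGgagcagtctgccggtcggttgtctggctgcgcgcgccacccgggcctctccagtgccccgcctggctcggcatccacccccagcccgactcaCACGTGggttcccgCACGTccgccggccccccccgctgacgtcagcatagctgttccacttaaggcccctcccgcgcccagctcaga
BNIP3 held 6 matches in these bases: 4 of GCGTG, and 2 of ACGTG from 1 palindrome, CACGTG, whose letters match on both strands and count as 2. LDHA held 5 matches, 4 of them from 2 such palindromes that begin 185 and 87 bases before the start. ENO2 held 1 match, 118 bases before its start. Thus the promoter of the member that rose and that of a member that fell both carried the letters. So did 43.1% of all promoters in the table, in the same 250 bases.
The RefSeq promoter table held 7 of the 10 genes, the others being SLC2A3, VEGFA and NDRG1. In the full window, which runs from 250 bases before to 50 bases after the start, 6 of the 7 held at least 1 match, as did 48.4% of 27305 promoters in the table. PDK1 held none, which says only that these letters are not in this window. A match in a promoter describes its sequence, and no binding was measured here.

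Arrays detected between 12846 and 13183 probes each, and their mean signals lay between 668 and 958. ABCB1 itself had a normalised signal of 152, 151 and 145 in the negative arrays (replicates 1 to 3) and 444, 673 and 292 in the positive arrays. It was higher by 1.57 ± 0.20 on the log2 scale (SE, limma adjusted p = 0.00204), and each positive array was above each negative one. Of 8 tested melanocytic marker probes, 1 was called, against 20.3% of all tested probes. This was S100A1, higher by 0.90 ± 0.26 on the log2 scale (SE, limma adjusted p = 0.0439, or 0.192 without the block), with pair differences of 0.76, 0.17 and 1.78. The probe of the listed melanocytic gene S100B and a further MITF probe were detected on 0 arrays and not tested. None of the 3 tested probes for endothelial and epithelial markers was called, 0 passed an unadjusted p under 0.05, and all 3 probes of the leucocyte gene PTPRC and the probe of the fibroblast gene COL1A1 were detected on 0 arrays.

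In the paired comparison of ABCB1-positive with ABCB1-negative cells, the set split. ENO2 was higher in ABCB1-positive cells, by 1.67-fold. BNIP3 and NDRG1 were lower, by 2.08-fold and 1.80-fold. The other 6 members, among them glucose transporter SLC2A3, lactate dehydrogenase LDHA and the secreted factors ADM, VEGFA and ANGPTL4, did not pass the test. The test was limma with the replicate number as a block and Benjamini-Hochberg adjustment over all 13186 tested probes, called at an adjusted p under 0.05. All differences are positive minus negative on the log2 scale, after a background correction with an offset of 50 that shrinks the differences of dim probes. One of 9 members was therefore called higher, against a background of 11.1% of all tested probes, and 2 of 9 were called lower, against 9.20%. In either direction the background was 20.3%. These counts are too small to be read as particular to the set.
The median difference of the 9 members was -0.11, against -0.02 for all tested probes. It was -0.11, -0.13 and -0.05 in pairs 1, 2 and 3. All 3 pairs had the same sign for 7 of the 9 members, against 55.7% of all tested probes. The 3 positive and 3 negative values did not overlap for 3 members, BNIP3, LDHA and VEGFA, against 27.2% of all tested probes. Without the block, 0 of the 9 members were called by limma, against 5.15% of all tested probes. An unadjusted p under 0.05 was reached by 2 of the 9 in that fit, close to the 21.6% of all tested probes.

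**Figure D1:**
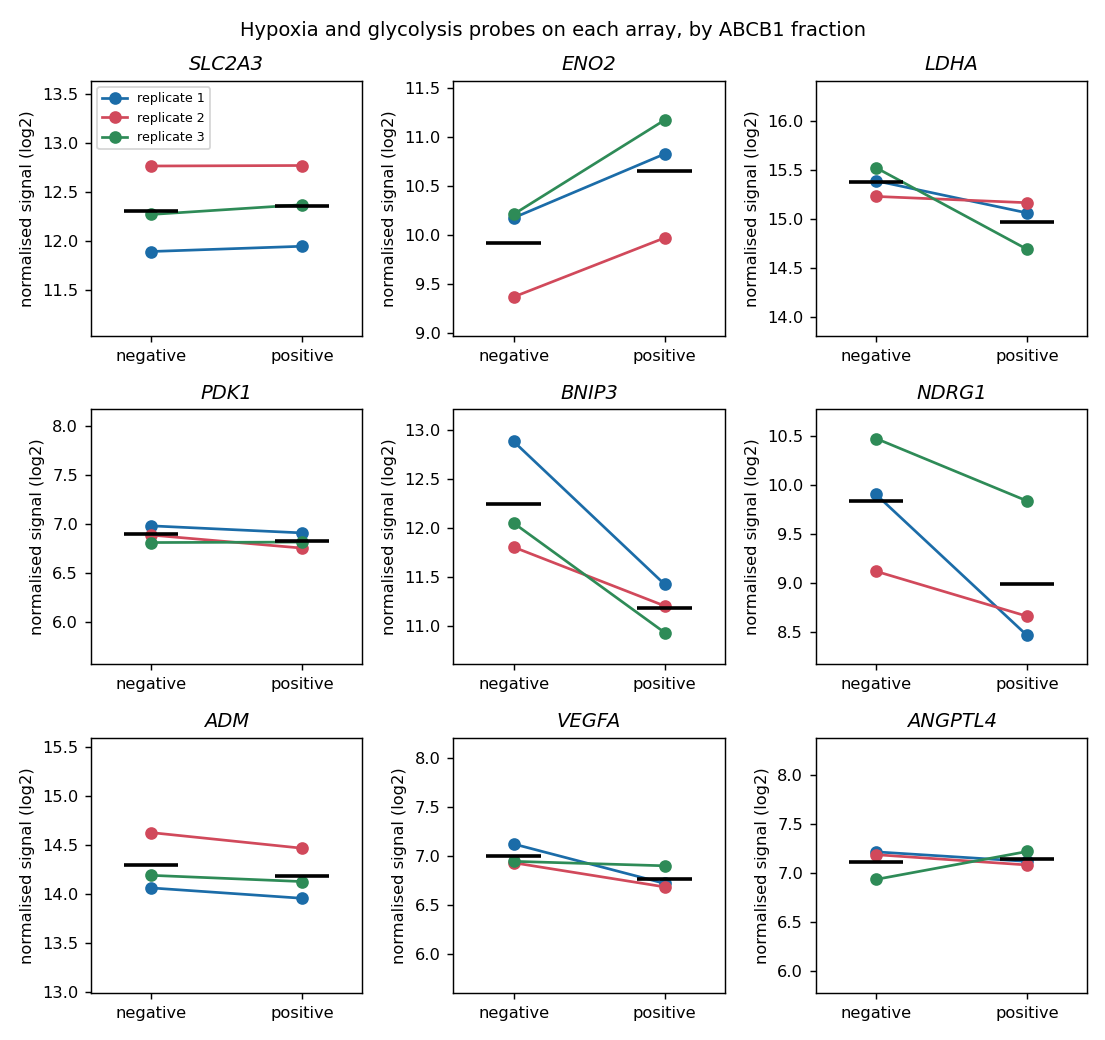
Normalised signal (log2, vertical axis, the same span in each panel) of the 9 measured member probes on the negative and positive arrays; coloured lines join the arrays of 1 replicate number and black bars are group means (n = 3). BNIP3 and NDRG1 fall and ENO2 rises along all 3 lines, while the lines of SLC2A3 and ADM are nearly flat and lie apart.

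Among the genes of glucose uptake and glycolysis, ENO2 (ILMN_1765796), the neuronal form of enolase, was the one called higher. Its normalised signal was 1157, 662 and 1187 in negative replicates 1 to 3 and 1818, 1004 and 2310 in positive replicates 1 to 3. Each positive array was above the negative array of its own number, but positive replicate 2 lay below negative replicates 1 and 3, so the groups overlapped. The differences of the pairs were 0.65, 0.60 and 0.96, with a mean of 0.74 ± 0.12 (SE, limma adjusted p = 0.00554, 95% interval 0.46 to 1.02). Without the block the same difference had an adjusted p of 0.26 in limma, in a fit whose error includes the distance between replicate numbers.

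LDHA (ILMN_1807106), which turns pyruvate into lactate, had normalised signals of 42918, 38448 and 47096 in the negative arrays and 34218, 36779 and 26463 in the positive arrays. The groups did not overlap, and the lowest negative value was that of replicate 2, next to the highest positive value of the same replicate. The pair differences were -0.33, -0.06 and -0.83, and their mean of -0.41 ± 0.15 (SE) did not pass the test (limma adjusted p = 0.101, 95% interval -0.77 to -0.05 before adjustment). Without replicate 2 it was -0.58 and passed, with a limma adjusted p of 0.0331, and without replicate 3 it was -0.20, with a limma adjusted p of 0.339. The probe was close to the top of the measured range: its deposited signals were 58.7% to 91.8% of the brightest signal on their array. Where the arrays were scaled by the median or the 75th percentile in place of quantiles, the difference was -0.24 and -0.17, so its size rested on the scaling.

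SLC2A3 (ILMN_1775708), a high-affinity glucose transporter, had normalised signals of 3792, 6941 and 4928 in the negative arrays and 3935, 6965 and 5278 in the positive arrays. The order of the replicate numbers was the same in both fractions, with replicate 1 lowest and replicate 2 highest. The mean difference was 0.05 ± 0.11 (SE, limma adjusted p = 0.761), with a 95% interval of -0.19 to 0.30. A rise of more than 0.30 therefore lay outside the interval.

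HK2, which traps glucose in the cell as its phosphate, was read from another probe of the gene (ILMN_2156172), chosen because the listed probe was not analysed here. Its normalised signal was 1100, 1397 and 1114 in the negative arrays and 878, 864 and 918 in the positive arrays, with no overlap. The difference was -0.43 ± 0.12 (SE, limma adjusted p = 0.045), close to the threshold. It passed in 6 of 17 alternative fits, which gave differences between -0.53 and -0.30, and was lost without replicate 1 or 2 (limma adjusted p = 0.127 and 0.162). Over all tested probes, 1333 were called without replicate 1 and 2732 without replicate 2, against 2682 in the reported fit.

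PDK1 (ILMN_1670256), the kinase that shuts the entry of pyruvate into the mitochondrial cycle, was dim on every array. Its deposited signals were between 28.4 and 53.4, with detection p-values of 0.0211 to 0.0392. The difference was -0.07 ± 0.11 (SE, limma adjusted p = 0.699, 95% interval -0.32 to 0.18). The offset limits what a probe of this brightness can show, and with no background correction the difference was -0.18.

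BNIP3 (ILMN_1724658), an outer mitochondrial membrane protein that promotes mitophagy, had the largest absolute difference of the 9 members. Its normalised signal was 7559, 3582 and 4247 in negative replicates 1 to 3 and 2754, 2364 and 1958 in positive replicates 1 to 3. All positive arrays were below all negative arrays, and the negative arrays were the more spread, with SDs of 0.56 and 0.25 log2 units in the negative and the positive fraction (n = 3 each). The pair differences were -1.46, -0.60 and -1.12, with a mean of -1.06 ± 0.16 (SE, limma adjusted p = 0.00456, 95% interval -1.44 to -0.68). The adjusted p without the block was 0.0726 in limma.

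NDRG1 (ILMN_1809931), a stress-induced cytoplasmic protein also linked to differentiation, was lower in each pair but varied widely between replicate numbers. The normalised signal was 959, 557 and 1424 in negative replicates 1 to 3 and 354, 406 and 916 in positive replicates 1 to 3. Positive replicate 3 lay above negative replicate 2, so the groups overlapped. The pair differences were -1.44, -0.46 and -0.64, with a mean of -0.84 ± 0.18 (SE, limma adjusted p = 0.0169, 95% interval -1.27 to -0.42). Replicate 1 carried much of the size: without it the difference was -0.55 and the limma adjusted p was 0.0724. That fit called 1333 of all 13186 tested probes, against 2682 in the reported fit. The adjusted p without the block was 0.303.

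The 3 secreted factors gave no call. ADM (ILMN_1708934), the vasodilator peptide adrenomedullin, had normalised signals of 17064, 25228 and 18652 in the negative arrays and 15859, 22593 and 17849 in the positive arrays. Its difference was -0.11 ± 0.11 (SE, limma adjusted p = 0.507, 95% interval -0.36 to 0.14). The sign turned with the scaling, to 0.11 under median scaling, 0.18 under 75th percentile scaling, 0.09 under cyclic loess and 0.06 in the authors' mean-scaled values.

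VEGFA (ILMN_1803882), the main growth factor of blood vessels, was dim, with deposited signals of 66.1, 44.9 and 69.1 in the negative arrays and 34.6, 24.1 and 40.7 in the positive arrays. The signals did not overlap and were lower in the positive array of each pair. After normalisation the difference was -0.23 ± 0.12 (SE, limma adjusted p = 0.200, 95% interval -0.50 to 0.04). With no background correction it was -0.62 (limma adjusted p = 0.0957), and with an offset of 16 it was -0.33 (limma adjusted p = 0.133). Its size thus depended on the background correction. Of 17 alternative fits it passed in 1, with array weights, at -0.34 (limma adjusted p = 0.0155). That fit called 41.8% of all tested probes. Another, brighter probe of the gene, ILMN_2375879, had normalised signals of 378, 298 and 236 in the negative arrays and 214, 236 and 262 in the positive arrays. Its difference was -0.34 ± 0.18 (SE, limma adjusted p = 0.212), negative in pairs 1 and 2 (-0.82 and -0.34) and positive in pair 3 (0.15). Without replicate 3 it was -0.58 and passed (limma adjusted p = 0.0261), and without replicate 1 it was -0.09 (limma adjusted p = 0.847). A further VEGFA probe was detected on 0 arrays.

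ANGPTL4 (ILMN_1707727), a secreted inhibitor of lipoprotein lipase, had deposited signals of 75.3, 65.6 and 67.2 in the negative arrays and 69.4, 51.7 and 65.4 in the positive arrays. Its difference was 0.03 ± 0.12 (SE, limma adjusted p = 0.897, 95% interval -0.26 to 0.31), with pairs of -0.10, -0.10 and 0.28. Another probe of the gene, ILMN_1674376, gave -0.08 ± 0.11 (SE, limma adjusted p = 0.662). Both probes were near the limit of detection, and another, ILMN_2386444, was detected on 0 negative and 2 positive arrays and was not tested.

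**Figure D2:**
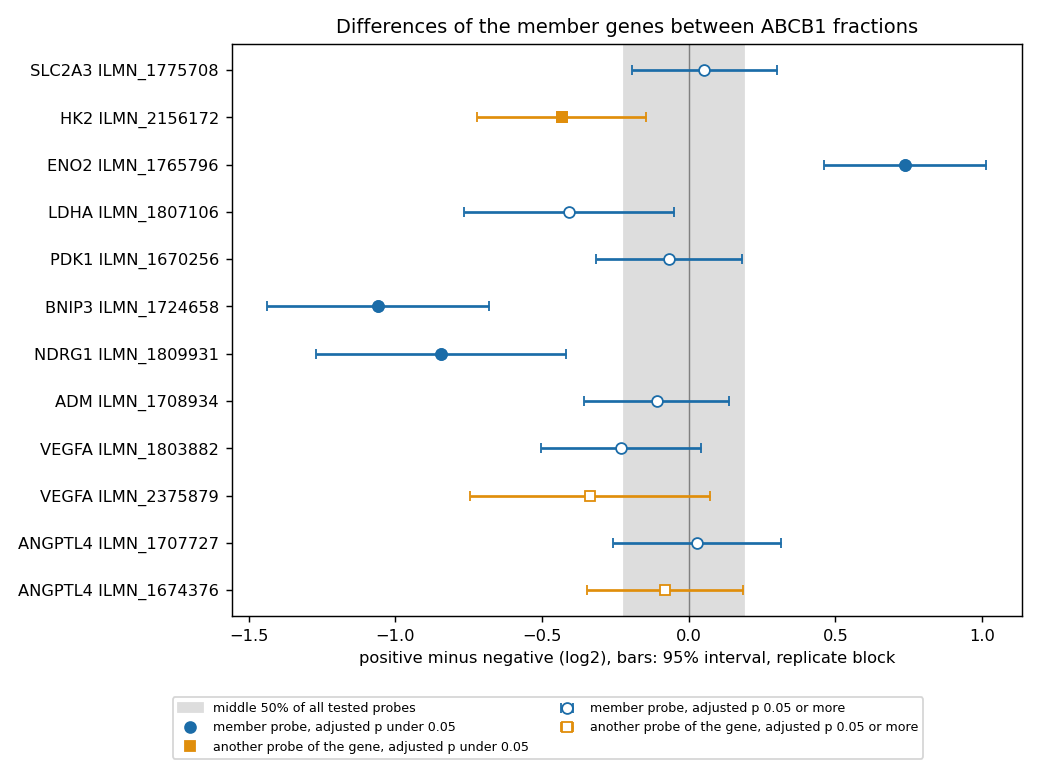
Positive-minus-negative log2 difference (horizontal axis) with its 95% interval for each member probe (circles) and for other tested probes of the same genes (squares), from the fit with the replicate block; filled symbols passed an adjusted p of 0.05 and the grey band spans the middle 50% of all tested probes, -0.22 to 0.19. Of the called members, BNIP3 and NDRG1 lie left of the band and ENO2 right of it. LDHA, both VEGFA probes and the HK2 probe also lie left of it, and the HK2 probe is the only filled square.

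The replicate number separated some members more than the ABCB1 fraction did. It is taken here to mark the shift assay, although the labels do not state the pairing. In limma's moderated F test of the number, 3 of the 9 members were called, SLC2A3, ENO2 and NDRG1 (adjusted p = 0.0281, 0.0251 and 0.0327), against 9.56% of all tested probes. The number accounted for 99.1% of the variation of SLC2A3 over the 6 arrays and 93.8% of that of ADM, while the fraction accounted for 0.57% and 5.48%. For ENO2 the number held 58.0% and the fraction 40.1%, and for NDRG1 56.7% and 34.5%. BNIP3, VEGFA and LDHA showed the reverse, with 68.8%, 61.9% and 59.8% for the fraction. Over all tested probes the medians were 44.1% for the number and 27.1% for the fraction. The number has 2 degrees of freedom, more than the fraction has, and the shares are not adjusted for this. A larger share for the number is therefore partly built in. The levels did not order the replicate numbers alike across members. SLC2A3 and ADM were highest in replicate 2 of both fractions, while ENO2 was lowest in replicate 2 of both and NDRG1 highest in replicate 3 of both.

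**Figure D3:**
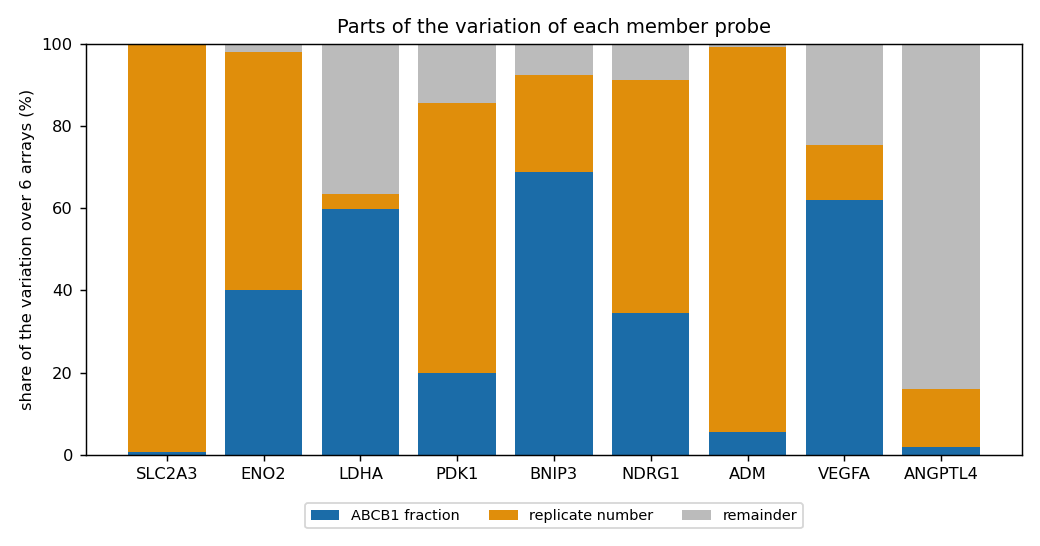
Share of each member probe's variation over the 6 arrays (vertical axis, %) taken by the ABCB1 fraction, the replicate number and the remainder, as stacked bars. The number takes 99.1% for SLC2A3 and 93.8% for ADM, the fraction 68.8% for BNIP3, and the remainder 84.0% for ANGPTL4.

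The other genes of glycolysis were nearly all not called. Of 19 further glycolytic enzymes, regulators and transporters, 17 were tested with 23 probes, and the transporters SLC16A1 and SLC16A3 were not analysed here. PGAM1, phosphoglycerate mutase, was called lower, 1 of 23 probes against 9.20% of all tested probes, and 0 were called higher, against 11.1%. Its normalised signal was 8562, 7048 and 6965 in the negative arrays and 5556, 5579 and 5626 in the positive ones, a difference of -0.42 ± 0.12 (SE, limma adjusted p = 0.0397). The groups did not overlap, but the call was lost in 10 of 17 alternative fits, among them those without replicate 1 (limma adjusted p = 0.335) and without replicate 2 (0.0539). Over all 13186 tested probes, 1333 were called without replicate 1 and 2732 without replicate 2, against 2682 in the reported fit. Without replicate 3, 5 of the 23 probes were called lower. That fit called 18.5% of all tested probes in both directions together. Its share for lower calls alone was not computed, so the count has no like background here. An unadjusted p under 0.05 was reached by 9 of the 23 probes, against 36.3% of all tested probes, and 16 of the 23 differences were negative. The median was -0.14. Among those not called were the transporter SLC2A1 (-0.39, limma adjusted p = 0.0766), the kinase PGK1 (-0.26, limma adjusted p = 0.134), the isomerase GPI (0.35, limma adjusted p = 0.056) and the phosphofructokinase PFKL (0.44, limma adjusted p = 0.0923). The 3 probes of the pyruvate kinase PKM differed among themselves, with values from -0.23 to 0.21.

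Of 23 further genes of the hypoxia response, 17 were tested with 22 probes. FAM162A and RORA were higher, HIF1A, INSIG2, MXI1, P4HA1 and P4HA2 were lower, and the other 10 were not called. By probe, 2 of 22 were called higher and 6 of 22 lower, against the 11.1% and 9.20% of all tested probes given above. The median difference was -0.26, with 17 of 22 negative. These are not independent readings of induced genes, since some genes have more than 1 probe and the list also holds regulators. Among the regulators, the VHL probes gave -0.20, -0.32 and -0.27 and HIF1AN gave 0.34, all uncalled. All 6 lower calls were lost without replicate 1, at limma adjusted p-values of 0.0641 to 0.185, and without the block, at 0.0563 to 0.259. Over all 13186 tested probes, 1333 were called without replicate 1 and 679 without the block, against 2682 in the reported fit.
P4HA1, a catalytic subunit of the collagen prolyl hydroxylase, had normalised signals of 1333, 1317 and 1152 in the negative arrays and 824, 983 and 703 in the positive ones, a difference of -0.61 ± 0.12 (SE, limma adjusted p = 0.00988), and a second P4HA1 probe was detected on 0 arrays. For its relative P4HA2 both tested probes were called. ILMN_2381697 had normalised signals of 1751, 1796 and 1838 in the negative arrays and 1283, 1278 and 1312 in the positive ones, a difference of -0.48 ± 0.11 (SE, limma adjusted p = 0.0182). The values of each fraction lay closely together. ILMN_2280135 gave -0.63 ± 0.18 (SE, limma adjusted p = 0.0437), with pairs of -0.75, -1.07 and -0.08, and -0.41 without replicate 2 (limma adjusted p = 0.129).

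HIF1A, the oxygen-regulated subunit itself, was read by 2 probes. ILMN_1763260 had normalised signals of 579, 706 and 514 in the negative arrays and 330, 616 and 287 in the positive ones, and its difference of -0.62 ± 0.15 passed (SE, limma adjusted p = 0.0251). Positive replicate 2 overlapped the negative arrays. ILMN_2379788 gave -0.31 ± 0.16 and did not pass (SE, limma adjusted p = 0.198), with a positive difference in pair 2 (0.14). HIF is controlled mainly at the protein, which arrays do not measure. EPAS1, which encodes the other main alpha subunit, gave -0.02 ± 0.17 (SE, limma adjusted p = 0.946), and the ARNT probe was detected on 0 arrays.

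FAM162A, a mitochondrial protein induced by hypoxia, rose from 337, 312 and 245 in the negative arrays to 532, 443 and 452 in the positive ones, a difference of 0.68 ± 0.12 (SE, limma adjusted p = 0.00733). RORA, a nuclear receptor, had 117, 146 and 167 in the negative arrays and 268, 267 and 251 in the positive ones, a difference of 0.88 ± 0.14 (SE, limma adjusted p = 0.00474). In both genes the groups did not overlap, and RORA was the 1 probe of either pathway list that also passed without the block. It was read from 1 of 6 RORA probes, the other 5 being detected on at most 1 array. INSIG2, a brake on sterol synthesis, and MXI1, an antagonist of MYC, gave -0.40 ± 0.11 (SE, limma adjusted p = 0.0439) and -0.42 ± 0.12 (SE, limma adjusted p = 0.0428, ILMN_1794074). A dim second MXI1 probe, ILMN_1670570, gave -0.26 and did not pass (limma adjusted p = 0.188). The probes of EGLN3, LOX and CA12 were detected on 0 arrays, and CA9 and PPFIA4 were not analysed here.

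**Figure D4:**
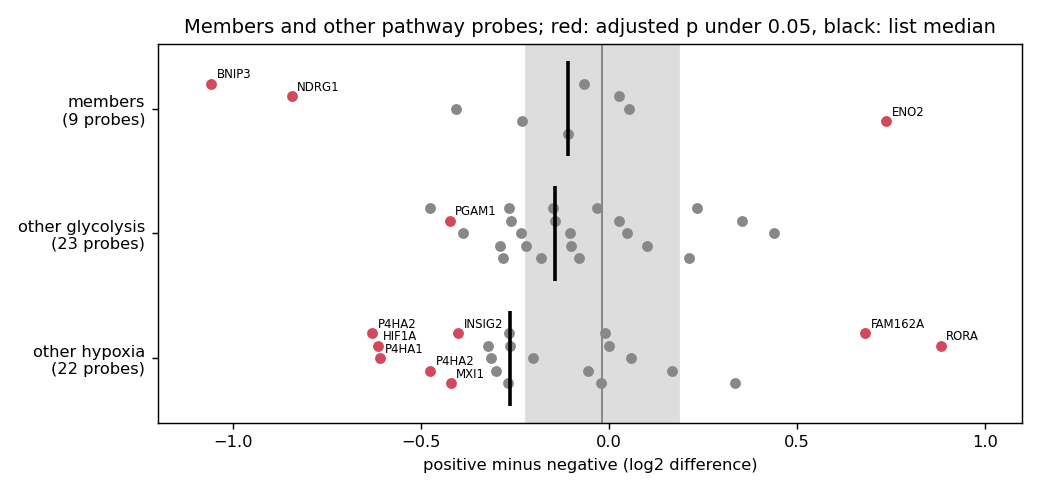
Positive-minus-negative log2 difference (horizontal axis) of each tested probe of the 9 members, the other glycolysis genes (23 probes) and the other hypoxia genes (22 probes); red points passed an adjusted p of 0.05 and carry their gene name, black bars are list medians, the grey line is the median of all tested probes and the grey band spans their middle 50%. The list medians are -0.11, -0.14 and -0.26, and called probes lie on both sides in the members and the hypoxia list.

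**Figure D5:**
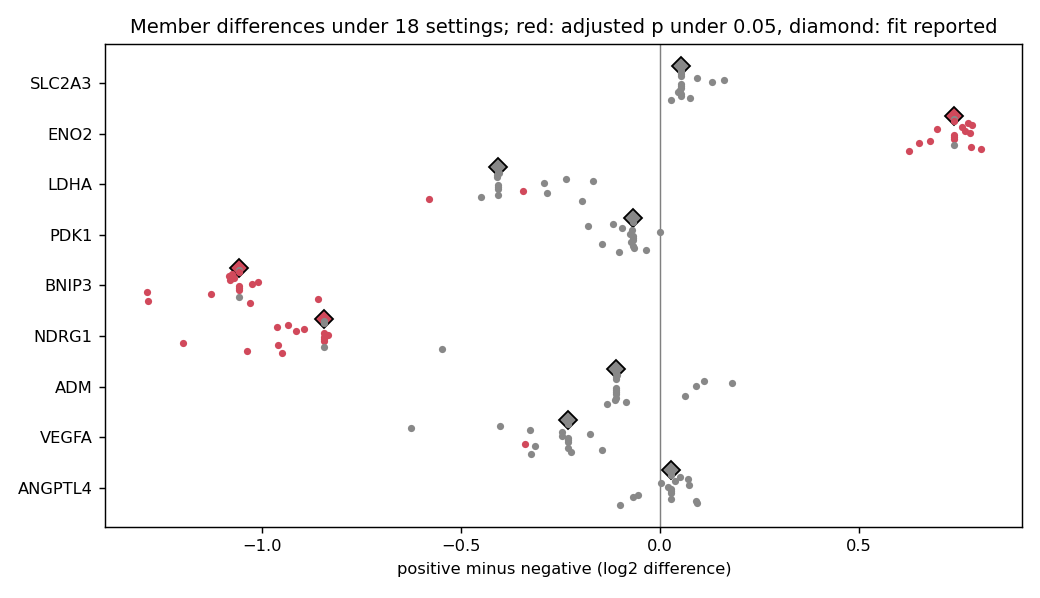
Positive-minus-negative log2 difference (horizontal axis) of each member under the reported fit (diamond) and 17 alternatives (points), red where the adjusted p was under 0.05. ENO2 and BNIP3 passed in 15 and NDRG1 in 13 of the 17 alternatives, and ADM and ANGPTL4 lie on both sides of 0.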

How the data were processed

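Illumina 1-colour bead arrays were hybridised with biotinylated cRNA, per the labels' protocols. The deposited table gives, per the file headers, each probe's intensity on each array beside its detection p-value. Some intensity values are negative, which shows a background subtraction whose method is not given in the sources used here. A second table, which the authors also deposited, holds the same intensity values multiplied by 1 factor per array. Probe names come from the platform annotation, which pairs 21834 of 24526 probes with 1 gene and 2692 with none.

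Signals were corrected with normexp (offset 50), quantile normalised and log2 transformed in limma 3.58.1 (R 4.3.3). Probes with a detection p under 0.05 on at least 3 of 6 arrays were tested two-sided in limma (lmFit, eBayes), and p-values of all 13186 were adjusted together by Benjamini-Hochberg. The printed normalised signals are 2 to the power of these values and include the offset.

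The replicate number was a block, since the design names 3 independent assays. Deviations from the group means correlated at 0.48, 0.64 and 0.48 between arrays of equal number. Between arrays of unequal number the correlations lay between -0.54 and 0.14. Deviations within a fraction cancel each other, so part of this gap is built in. The labels number the arrays but do not state the pairing. The fit was also run on data simulated from its own model, which cannot show whether that model suits these arrays.

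Named were all members and the called genes of the 2 pathway lists, with a few more for contrast, chosen after their values were seen. Members and lists were chosen with earlier results of these data known. Alternatives covered the block, background correction, scaling, filter, variance prior, array weights, the second table, a paired t-test and leaving out each number. The number of arrays, 3 per fraction, limits the precision.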

Additional observations from a re-analysis of the deposited data

How the results depend on the processing

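Every called member kept its direction in all 17 alternatives, and the calls of ENO2, BNIP3 and NDRG1 held in 15, 15 and 13. With no replicate block, 0 members were called higher and 0 lower by limma, 0 other glycolysis probes were lower, and 1 other hypoxia probe was higher and 0 lower. That fit called 5.15% of all tested probes. At an unadjusted p under 0.05 it held 2 members, against 21.6% of all tested probes. The paired t-test called 0 probes in every list and 0 of all 13186, of which 2891 had an unadjusted p under 0.05. With a random replicate block 1 member was lower. Array weights called 41.8% of all tested probes, 4 members lower, 2 and 8 other glycolysis probes higher and lower, and 10 other hypoxia probes lower.

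Other glycolysis probes numbered 1 higher with a random block, 75th percentile scaling, cyclic loess and no filter. Lower ones numbered 0 with neqc, no background correction, offset 16, median scaling, 75th percentile scaling and cyclic loess, and 2 in the authors' mean-scaled values. Other hypoxia probes called lower numbered 1 with no background correction and 2 with median scaling. Those 2 fits called 14.9% and 10.2% of all tested probes in either direction, against 20.3% in the reported fit. The share was 20.3% with a random block, 21% with neqc, 21.2% with offset 16 and 18.5% with 75th percentile scaling. It was 19.1% with cyclic loess, 11% with no filter and 20.3% in the mean-scaled values. The median member difference was -0.18 with no background correction and -0.00046 with 75th percentile scaling. Median scaling left 1 member that differed between replicate numbers. The share of all tested probes in that test was not computed under median scaling, so this count has no like background here. Leaving out a number gave 1 to 3 members lower, 0 to 5 other glycolysis probes lower, 0 to 1 higher, and 0 to 5 other hypoxia probes lower. Over all tested probes, 1333, 2732 and 2440 were called without replicates 1, 2 and 3, against 2682 in the reported fit.

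The alternatives were computed for the members, the other tested probes of their genes, ABCB1 and the called probes of the pathway lists; among these, signs turned for uncalled probes alone: ADM (0.11 with median scaling, 0.18 with 75th percentile scaling, 0.092 with cyclic loess, 0.064 in the mean-scaled values), ANGPTL4 ILMN_1707727 (-0.055 with array weights, -0.066 in the mean-scaled values, and between -0.10 and 0.094 on leaving out a number) and ANGPTL4 ILMN_1674376 (0.0028 with 75th percentile scaling, and between -0.13 and 0.0081 on leaving out a number). What caused these shifts was not tested. At a detection p under 0.01, 6 of the 9 members were detected on every array, so PDK1, VEGFA and ANGPTL4 are limited by signal over background.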
